A study of Homo sapiens with 36 samples.

Results

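RN7SL1, RN7SL2, RN7SK, RPPH1 and RMRP are 5 short structural RNA genes that together took between 2.84% and 27.5% of all gene counts in a library, in human stem cells before and during their induction to neurons. They are 5 of the 62710 genes in the deposited table, found by their symbols, and 1 row carried each symbol. They were selected on measured values, because their share of a library varied between replicates and rose with the days of induction. Levels by day and spread between replicates are therefore given here as descriptions with no test. The tests concern mainly the RAI1 genotype labels, which the selection did not use, and the other genes of the same pathways. The spread between replicates that the selection used is also the error in the genotype tests of the members. It makes calls of them less likely, so a missing call is no evidence of equal levels.

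These RNAs work inside ribonucleoprotein machines and are made by RNA polymerase III, the enzyme that also makes transfer RNAs and 5S ribosomal RNA. 7SL, encoded by RN7SL1 and RN7SL2, is the scaffold of the signal recognition particle (SRP), which brings ribosomes making secreted and membrane proteins to the endoplasmic reticulum. 7SK, encoded by RN7SK, holds the transcription elongation kinase P-TEFb in an inactive complex. RPPH1 is the catalytic RNA of RNase P, which trims the 5′ leader from transfer RNA precursors, and RMRP is the RNA of RNase MRP, a relative of RNase P that cuts ribosomal RNA precursors and shares most of its proteins.

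The cells were H9, an established line of human embryonic stem cells, carrying a doxycycline-inducible NGN2, a transcription factor that turns stem cells into neurons. Cells labelled WT, HET (RAI1+/−) and KO (RAI1−/−) were collected at days 0, 3 and 7, which makes 9 groups of 4 replicates, or 36 libraries; the labels do not say how many clones each genotype stands for, nor at which days doxycycline was present. All groups share the NGN2 system and a Neurobasal-A culture medium with B27, GDNF, NT3 and CultureOne, and all, day 0 included, carry the cell type label iNeuron. RAI1 encodes a chromatin-associated regulator of transcription. Total RNA was depleted of ribosomal RNA rather than selected for poly(A) tails, so RNAs without a tail could be sequenced. The labels call the replicates biological without naming separate cultures, and p-values measure only the spread between these samples.

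The RNAs counted are described first, because near-identical copies and short lengths bear on every count that follows. Positions and sequences are those of GENCODE 29 transcripts on GRCh38, written as DNA. RN7SL1 lies at chr14:49586580-49586878 on the plus strand, in an intron of RPS29, which is on the minus strand. RN7SL2 lies at chr14:49862550-49862849 on the minus strand, in an intron of the long non-coding RNA AL627171.2. RN7SL1 and RN7SL2 had 295 identical columns of 300 aligned (98.3%), with 4 substitutions and 1 base found only in RN7SL2. Of all stretches of 151 bases in RN7SL1, the length of 1 read, 36.9% were also in RN7SL2, so reads can fit both and the split between the copies rests on the authors' allocation of such reads. 7SL is given below as each copy and as their sum. A further copy, RN7SL3, shared no stretch of 151 bases with RN7SL1 and averaged 22600 counts.

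The other 3 RNAs have 1 member gene each. RN7SK, at chr6:52995621-52995948 on the plus strand, is 328 nucleotides long and is shown from position 1 to 300. Capitals mark GATC, found at positions 12, 41 and 63. GATC is the DNA form of the motif through which HEXIM proteins bind the 5′ hairpin of 7SK. The capitals mark letters only, and which of these positions bind HEXIM was not examined. RPPH1 (chr14:20343075-20343407, minus strand, 333 nucleotides) is shown from position 1 to 300, and RMRP (chr9:35657754-35658017, minus strand, 264 nucleotides) whole.
RN7SK: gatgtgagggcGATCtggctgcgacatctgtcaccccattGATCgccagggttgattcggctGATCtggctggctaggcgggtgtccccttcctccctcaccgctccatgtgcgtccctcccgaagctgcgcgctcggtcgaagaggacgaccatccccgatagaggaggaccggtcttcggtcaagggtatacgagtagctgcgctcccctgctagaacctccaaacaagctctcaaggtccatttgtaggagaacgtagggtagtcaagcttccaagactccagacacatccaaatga
RPPH1: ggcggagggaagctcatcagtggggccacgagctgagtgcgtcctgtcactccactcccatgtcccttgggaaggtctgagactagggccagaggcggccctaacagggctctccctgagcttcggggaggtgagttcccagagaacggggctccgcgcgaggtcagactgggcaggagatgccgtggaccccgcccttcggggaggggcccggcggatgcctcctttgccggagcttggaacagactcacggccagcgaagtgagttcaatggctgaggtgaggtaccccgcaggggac
RMRP: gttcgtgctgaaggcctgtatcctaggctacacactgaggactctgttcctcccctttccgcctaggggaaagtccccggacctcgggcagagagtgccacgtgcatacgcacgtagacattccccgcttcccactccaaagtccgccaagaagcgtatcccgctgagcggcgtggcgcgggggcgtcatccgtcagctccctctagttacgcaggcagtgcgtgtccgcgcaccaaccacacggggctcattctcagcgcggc
The GC content of the 5 RNAs ran from 58.2% in RN7SK to 64.6% in RPPH1. A row with no symbol, ENSG00000259001, covers all of RPPH1 on the same strand and held between 0.23% and 2.03% as many counts as RPPH1. The row ENSG00000202198 likewise covers RN7SK and held between 0.0282% and 0.557% as many.

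RPPH1, RMRP and RN7SK each stand head to head with a protein-coding gene: PARP2 begins 175 bases from RPPH1, CCDC107 273 bases from RMRP and GSTA4 243 bases from RN7SK. The part of the stretch between start sites that the RefSeq promoter table holds is shown for RPPH1 and RMRP (GRCh38.p14, plus strand), because genes of this kind have a promoter that lies wholly upstream. Capitals mark ATGCAAAT, the octamer bound by POU-domain factors, and TATAA, the core of the TATA box, each searched on both strands.
PARP2 to RPPH1, chr14:20343408-20343581: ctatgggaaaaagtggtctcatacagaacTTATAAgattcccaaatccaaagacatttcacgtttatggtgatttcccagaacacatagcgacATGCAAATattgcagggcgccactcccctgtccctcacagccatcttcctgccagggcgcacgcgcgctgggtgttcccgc
CCDC107 to RMRP, chr9:35658042-35658289: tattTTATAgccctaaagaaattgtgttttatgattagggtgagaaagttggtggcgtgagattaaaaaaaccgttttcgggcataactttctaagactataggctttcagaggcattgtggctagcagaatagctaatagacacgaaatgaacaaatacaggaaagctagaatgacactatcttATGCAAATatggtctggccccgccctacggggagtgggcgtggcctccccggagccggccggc
The octamer matched 94 bases upstream of RPPH1 and 210 bases upstream of RMRP. TATAA or its complement matched 30 and 31 bases upstream of RPPH1, where the pair overlap, and 29 bases upstream of RMRP. Among 35116 windows of 300 bases at gene starts, 1.77% held ATGCAAAT, 20.4% held TATAA and 0.575% held both. A match describes these letters only.

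Library totals ran from 23.9 to 56.7 M counts. Pluripotency markers (6 genes) summed to between 2310 and 4950 CPM (counts scaled to the library total without the 5 members, also called non-member CPM) at day 0 and to between 60.6 and 323 CPM at day 7, and pan-neuronal markers (8 genes) to between 270 and 821 CPM at day 0 and between 7340 and 18700 CPM at day 7. The day 0 libraries thus had the marker levels of stem cells despite the iNeuron label. They were not uniform. In each genotype at day 0, replicate 2 had the lowest pluripotency sum (2750 CPM in WT, 2630 in HET and 2310 in KO). It also had the highest pan-neuronal sum (573, 689 and 821 CPM). Glial, mesenchymal and neural crest markers (8 genes) summed to between 42.7 and 1270 CPM over the 3 days. RAI1 was not lower in the mutant groups: at day 7 it averaged 60.3 ± 15.1 CPM in libraries labelled WT, 79.5 ± 16 in those labelled HET and 89.1 ± 11.2 in those labelled KO (SD, n = 4), so the RAI1 counts do not check the genotype labels. Fewer cells of a type and less RNA per cell cannot be told apart in these bulk samples.

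7SL was the most abundant RNA counted. RN7SL1 ranked first by mean count over the 36 libraries and was among the top 3 genes in 36 of 36. At day 0 it took 1.77%, 2.2%, 2.35% and 2.99% of the counts in the libraries labelled WT, 2.35%, 1.82%, 2.25% and 2.74% in HET, and 1.6%, 2.43%, 2.32% and 2.95% in KO, in replicate order. The 3 genotypes overlapped almost fully. At day 3 the values were 3.87%, 3.78%, 9.15% and 8.27% in WT, 4.93%, 1.94%, 4.37% and 7.58% in HET, and 2.28%, 1.53%, 5.91% and 7.65% in KO. All 4 WT libraries at day 3 were above all 4 at day 0, whereas 1 HET and 2 KO libraries were not above the day 0 range of their genotype. At day 7 the values were 8.62%, 4.42%, 8.39% and 6.74% in WT, 12.2%, 0.952%, 1.6% and 4.55% in HET, and 4.63%, 3.17%, 3.31% and 5.75% in KO. The HET group at day 7 held both the highest and the lowest RN7SL1 value of the whole series, 12.8-fold apart.

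The mean RN7SL1 share in WT went from 2.33% ± 0.507 (SD, n = 4) at day 0 to 6.27% ± 2.84 at day 3 and 7.04% ± 1.94 at day 7, 3.02-fold higher at day 7 than at day 0. RN7SL2, the second copy, went from 1.64% ± 0.192 to 2.9% ± 0.77 and 4.4% ± 1.02 on the same days, 2.68-fold higher at day 7. Most of the RN7SL1 difference lay between days 0 and 3, where the edgeR log2 difference was 1.57 (SE 0.36), with 0.27 (SE 0.35) between days 3 and 7, while RN7SL2 gave 0.96 (SE 0.26) and 0.71 (SE 0.26). The ratio of RN7SL2 to RN7SL1 counts accordingly fell from a geometric mean of 0.713 at day 0 to 0.49 at day 3 and stood at 0.632 at day 7 in WT. The same dip was seen in HET (0.701, 0.542 and 0.654) and in KO (0.772, 0.544 and 0.712).

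RN7SK had the largest fold between days 0 and 7 in WT, and RPPH1 in HET and KO. At day 0 it took 1.02%, 1.11%, 0.924% and 1.06% of the counts in WT, 0.875%, 0.629%, 0.847% and 0.878% in HET, and 0.781%, 1.04%, 1.13% and 0.995% in KO. Every HET value at day 0 was below every WT value, and the lowest, replicate 2, was also the HET library with the highest sum of glial, mesenchymal and neural crest markers (1260 CPM against 158 to 324 in the other 3). At day 3 the shares were 3.06%, 2.38%, 5.3% and 4.63% in WT, 5.19%, 1.55%, 3.41% and 3.63% in HET, and 1.16%, 0.76%, 4.38% and 5.45% in KO. The KO group at day 3 fell apart into 2 low libraries near the day 0 level and 2 high ones. At day 7 the shares were 9.76%, 5.42%, 7.28% and 5.44% in WT, 5.3%, 0.95%, 1.07% and 4.26% in HET, and 3.9%, 3.27%, 3.43% and 4.47% in KO. All 8 mutant libraries at day 7 lay below the lowest WT library in share of the total. For HET this depended on the denominator. In non-member CPM HET replicate 1 (73000) lay above WT replicates 2 (63300) and 4 (66300). The WT mean went from 1.03% ± 0.0778 (SD, n = 4) at day 0 to 3.84% ± 1.35 at day 3 and 6.98% ± 2.05 at day 7, 6.78-fold higher at day 7 than at day 0, against 3.59-fold in HET and 3.82-fold in KO. RPPH1 was 4.54-fold higher in HET and 4.31-fold in KO over the same days.

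RN7SK also differed between days relative to 7SL. Its count over the sum of RN7SL1 and RN7SL2, a ratio within a library that needs no scaling, had a geometric mean of 0.261 at day 0, 0.423 at day 3 and 0.607 at day 7 in WT. The HET values were 0.208, 0.485 and 0.437, and the KO values 0.243, 0.391 and 0.534. The WT ranges did not overlap between days, at 0.219 to 0.323, 0.384 to 0.48 and 0.517 to 0.717. In HET the ranges of days 3 and 7 overlapped widely (0.326 to 0.696 and 0.277 to 0.591). In KO they overlapped narrowly (0.309 to 0.469 and 0.468 to 0.58). Both days lay above the day 0 range in HET (0.191 to 0.224) and KO (0.2 to 0.278).

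RPPH1 took 0.249% ± 0.0443 (SD, n = 4) of the counts in WT at day 0, then 0.911% ± 0.444 at day 3 and 1.53% ± 0.414 at day 7, 6.14-fold higher at day 7 than at day 0. The day 7 libraries gave 1.78%, 0.965%, 1.89% and 1.48% in WT, 2.65%, 0.211%, 0.33% and 1.01% in HET, and 1.17%, 0.74%, 0.735% and 1.4% in KO. As with RN7SL1, HET replicate 1 was the highest library of the series, and HET replicate 2 lay within the HET range of day 0. RMRP, the RNA of the sister enzyme, went from 0.168% ± 0.0438 to 0.346% ± 0.0709 and 0.418% ± 0.0349 in WT, 2.49-fold higher at day 7. Its day 7 libraries gave 0.42%, 0.369%, 0.451% and 0.431% in WT, 0.376%, 0.0684%, 0.109% and 0.352% in HET, and 0.295%, 0.22%, 0.251% and 0.42% in KO. The WT group at day 7 was narrow for RMRP, with a coefficient of variation of 8.36%, and the HET group wide.

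RMRP and RPPH1 diverged with days although their enzymes share proteins. The ratio of RMRP to RPPH1 counts had a geometric mean of 0.663 at day 0, 0.409 at day 3 and 0.281 at day 7 in WT, 0.745, 0.399 and 0.27 in HET, and 0.702, 0.444 and 0.297 in KO. In each genotype the highest ratio of day 7 lay below the lowest of day 0.

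**Figure D1:**
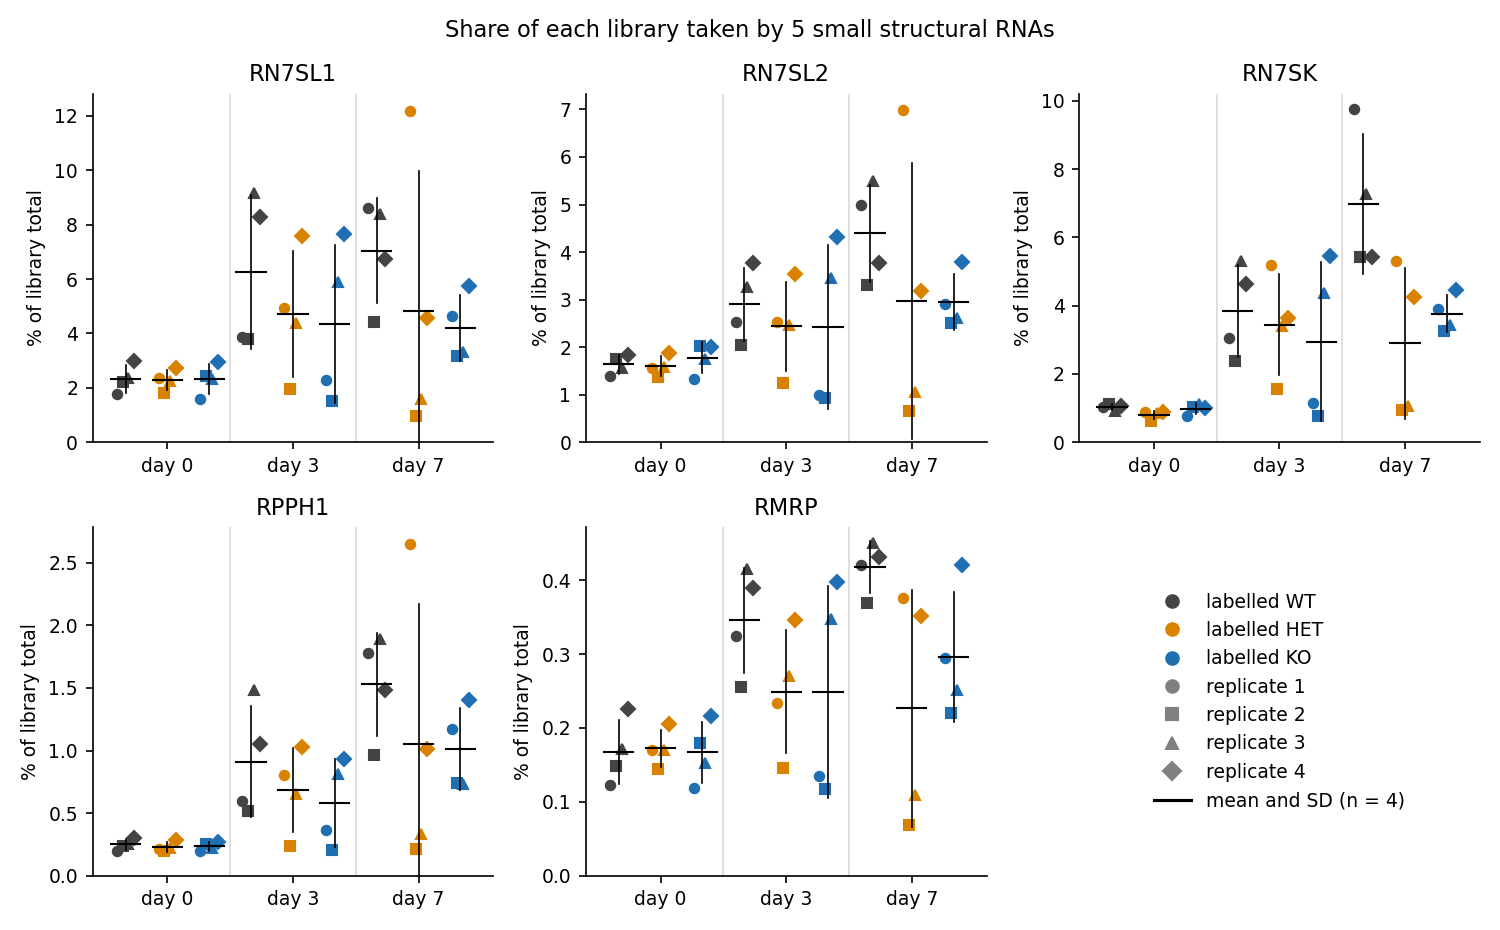
Share of the library total (%, linear axes from 0) taken by each of the 5 RNAs in each of 36 libraries, by day; colour gives the genotype label, the symbol the replicate number, and lines the mean and SD of 4, with lower SD bars that pass 0 cut at the axis. The SD is larger at days 3 and 7 than at day 0 for each RNA and genotype except RMRP in WT at day 7, and HET replicate 1 at day 7 is the highest library for RN7SL1, RN7SL2 and RPPH1.

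Divided by the full transcript length, the order of the RNAs was the same as by count. In TPM, which divides by a shorter effective length described below, the order differed. The median over 36 libraries put RN7SL2 (18.4% of the TPM total) above RN7SK (13.7%), while in WT at day 7 RN7SK had the higher mean (23.1% against 19.4%). RMRP stood above RPPH1 in WT at day 0 (means 2.96% and 1.96% of the TPM total) and below it at day 7 (3.03% and 4.84%). In non-member CPM per kilobase of transcript, the median level over 36 libraries was 121000 for RN7SL1, 92000 for RN7SK, 83600 for RN7SL2, 18600 for RPPH1 and 9770 for RMRP. The ranges of RN7SL1 (32800 to 561000), RN7SK (20000 to 400000) and RN7SL2 (22500 to 321000) overlapped widely, and those of RPPH1 (6110 to 110000) and RMRP (2670 to 22400) overlapped as well.

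Together the 5 RNAs took 5.41% ± 0.784 (SD, n = 4) of the counts at day 0 in WT, 5.1% ± 0.745 in HET and 5.49% ± 1.05 in KO. At day 3 the shares were 14.3% ± 5.36, 11.5% ± 4.73 and 10.5% ± 7.46, and at day 7 they were 20.4% ± 5.1, 12% ± 11.4 and 12.2% ± 2.74. The SD of the HET group at day 7 was nearly as large as its mean, with libraries at 27.5%, 2.84%, 4.17% and 13.4%. Other rows named for 7SL or 7SK, 971 in number and mostly pseudogenes, took only 0.0278% to 0.273% of a library, and 430 of them had no count in any library.

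The 5 RNAs rose and fell together between replicates. In 7 of the 9 groups 1 library was the lowest for all 5, and in 4 of the 9 groups 1 library was the highest for all 5. The library numbered 2 was the lowest in all 6 groups at days 3 and 7 for RN7SL1, RN7SL2, RN7SK and RMRP, and in 5 of these 6 for RPPH1, where KO replicate 3 at day 7 was lower by 0.735% against 0.74%. At day 0 it was the lowest in 1 of 3 groups. The labels give all libraries the same batch and attach nothing to the number. Between pairs of the 5 RNAs, deviations of log2 levels from the group means had Pearson r from 0.91 (RN7SK with RMRP) to 0.99 (RN7SL1 with RPPH1) over 36 libraries, values that share a denominator and, for the 7SL copies, reads. The SD within groups of log2 levels was 0.885 for RN7SL1, 0.804 for RN7SL2, 0.813 for RN7SK, 0.886 for RPPH1 and 0.675 for RMRP, against a median of 0.272 over 12647 genes, the property they were selected for.

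**Figure D2:**
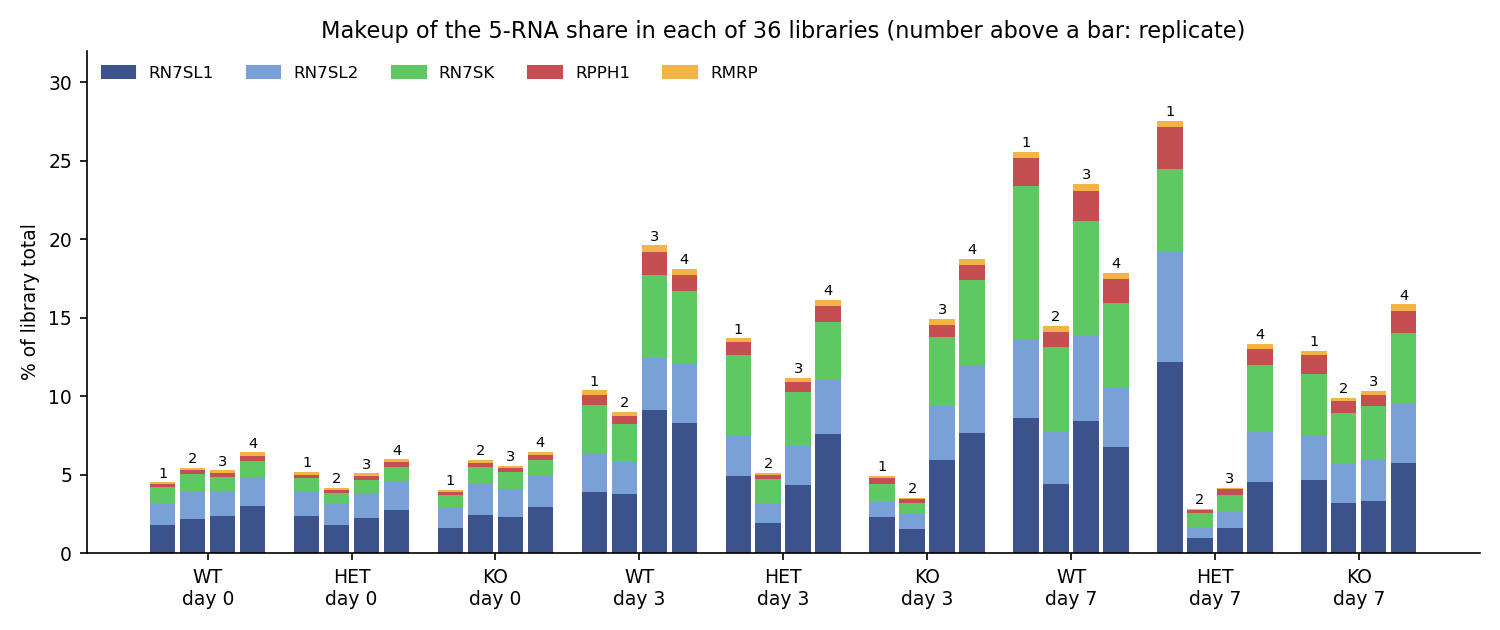
Stacked share of the library total (%) of the 5 RNAs, one bar for each of 36 libraries, grouped by genotype label and day; the number above a bar is the replicate. The sum runs from 2.84% to 27.5%, both in HET at day 7, and RN7SL1 is the largest or second largest layer in every bar.

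Within each day, 7SL in non-member CPM was compared with the other members and with 3 library properties over 12 libraries. Since the members were selected for this variation between libraries, and share a denominator, their correlations are descriptions with no test. RPPH1 followed 7SL closely at every day, with r = 0.912 at day 0 (rho 0.895), 0.978 at day 3 (rho 0.979) and 0.997 at day 7 (rho 0.958). RMRP did so as well, at 0.944 (rho 0.888), 0.976 (rho 0.944) and 0.957 (rho 0.951). RN7SK was looser at day 0, where r was 0.579 (rho 0.559), or 0.701 as deviations from the group means, than at day 3 (0.953, rho 0.937) and at day 7 (0.947, rho 0.972). Without the 2 libraries farthest from the median of 7SL, the 9 relations between members had r between 0.502 (RN7SK at day 0) and 0.99.

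For the library properties, permutation p-values are two-sided (100000 resamples), with Benjamini-Hochberg adjustment over all 18 relations, those between members included. The small p-values between members lower the adjusted values given here. An adjustment over the library properties alone was not made. The mean fragment length followed 7SL at days 3 and 7. This length was inferred, after the data were seen, from the deposited counts and FPKM of 79 genes with a single long transcript, and ran from 243.5 to 278.4 nucleotides. Libraries with more 7SL had shorter implied fragments at day 3 (r = -0.911, rho -0.797, permutation p = 0.00013, adjusted 0.00026; -0.876 without the 2 farthest libraries) and at day 7 (r = -0.849, rho -0.874, permutation p = 0.00032, adjusted 0.000576; -0.763 without them), with r = 0.338 at day 0 (rho 0.189, permutation p = 0.278, adjusted 0.334). HET replicate 1 at day 7, the library with the largest share of the 5 RNAs, had 243.9 nucleotides, against 272.5 and 278.4 in the low replicates 2 and 3. The 5 RNAs are themselves short and their fragments can enter the inferred length; the part of fragment length in their levels was not tested. The mitochondrial share of non-member counts was lower in libraries with more 7SL at day 0 (r = -0.744, rho -0.783, permutation p = 0.0059, adjusted 0.00965). At day 7 r was -0.64 (rho -0.622, permutation p = 0.0253, adjusted 0.0379), and at day 3 it was 0.212 (rho 0.0979, permutation p = 0.505, adjusted 0.535). Without the 2 farthest libraries r was -0.537 at day 0 and -0.723 at day 7, and for rho the adjusted permutation p at day 7 was 0.0521. The mitochondrial relation at day 7 thus stood near the threshold, under an adjustment that the relations between members had eased. It is not taken as found. The total of non-member counts gave r = -0.0841, -0.42 and -0.249 at days 0, 3 and 7 (rho -0.028, -0.469 and -0.308), with permutation p = 0.794, 0.177 and 0.436.

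**Figure D3:**
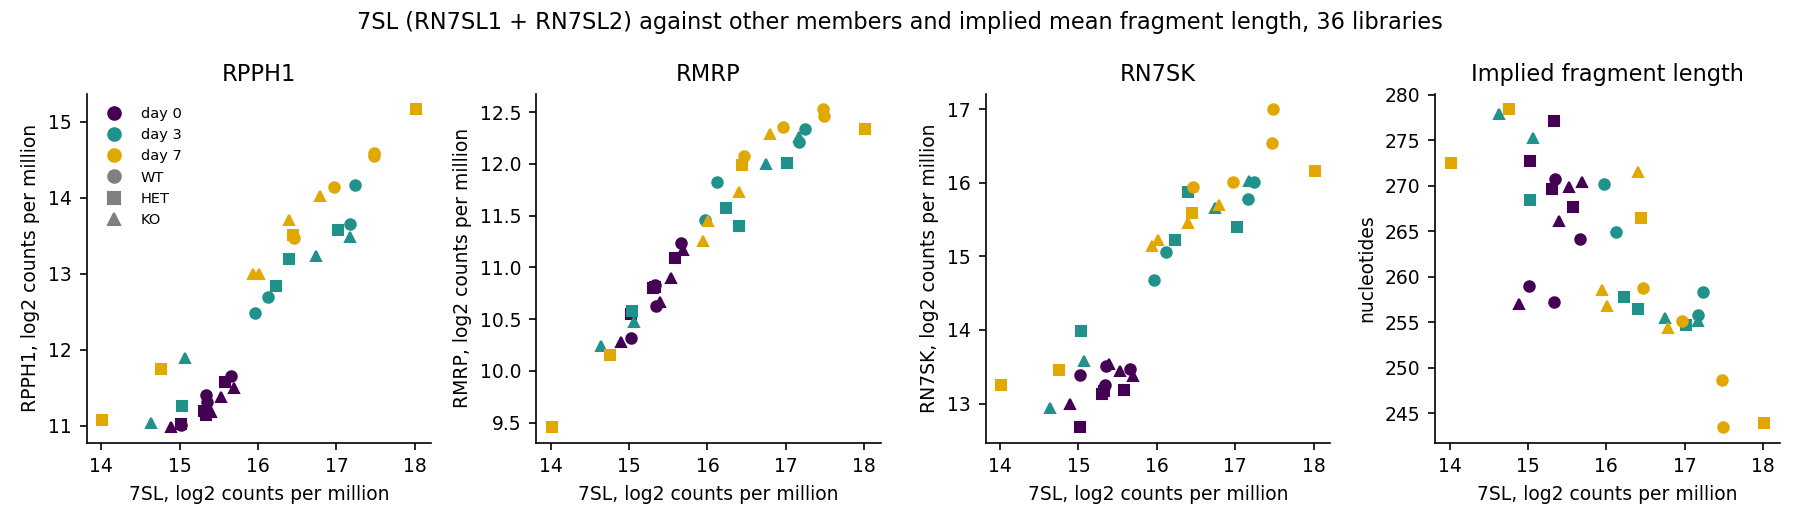
7SL (RN7SL1 plus RN7SL2, log2 non-member CPM, x axis) against RPPH1, RMRP and RN7SK on the same scale and against the implied mean fragment length in nucleotides, one point for each of 36 libraries; colour gives the day and the symbol the genotype label. Within days 3 and 7, libraries with more 7SL have more of the other RNAs (r of 0.947 to 0.997) and shorter implied fragments (r of -0.911 and -0.849).

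The shares depend on the unit. In TPM, which divides by an effective length, the 5 RNAs took 47.9% to 86.5% of a library, because the effective length implied by the deposited values was only 57.3 to 73.9 nucleotides for the 299 nucleotides of RN7SL1 and 35.6 to 47.6 for RMRP. The TPM share of the 5 RNAs was 57.3% in WT at day 0 and 81.5% at day 7. Between days 0 and 3 in WT the share of RN7SL2 changed 0.905-fold in TPM against 1.77-fold in counts, a reversal of direction, and that of RMRP 1.07-fold against 2.07-fold. RN7SK (1.86-fold) and RPPH1 (1.8-fold) were higher at day 3 in both units. The median log2 difference over all genes at that step was 0.07 in counts and -0.38 with limma on log2(TPM + 1), a shift of -0.45. All other genes share what the members leave: in HET at day 7 this remainder ranged 1.34-fold between replicates in counts, from 72.5% to 97.2%, and 3.85-fold in TPM, from 13.5% to 52.1%.

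The genotype labels were then compared within each day with edgeR's quasi-likelihood test, Benjamini-Hochberg adjusted over all genes tested, with an adjusted p under 0.05 as a call. The members were not called in any of the 9 comparisons, 0 of 5 in each. They were selected for a wide spread between replicates, which is the error in this test, so the missing calls are no evidence of equal levels. Over all genes, the share called between KO and WT was 2.08% at day 0, 21.6% at day 3 and 32.6% at day 7, between HET and WT 1.63%, 3.28% and 14.4%, and between KO and HET 0.856%, 4.35% and 1.4%. At an unadjusted p under 0.05 the members gave 3 differences, each of RN7SK, and DESeq2 and limma on log2(TPM + 1) also called 0 of 5 in each comparison. By edgeR's quasi-likelihood test with Benjamini-Hochberg adjustment they were HET against WT at day 0 (log2 -0.33, SE 0.13, adjusted p = 0.335), KO against HET at day 0 (0.30, SE 0.13, adjusted p = 0.826) and HET against WT at day 7 (-1.22, SE 0.55, adjusted p = 0.158).

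At day 0 the log2 differences of the other 4 RNAs lay between -0.09 and 0.17 in the 3 comparisons. At day 3 all 5 estimates were below 0 against WT, from -0.19 (RN7SL2, SE 0.53) to -0.60 (RPPH1, SE 0.57) in KO and from -0.16 (RN7SK, SE 0.60) to -0.45 (RMRP, SE 0.44) in HET. None was called, and the pan-neuronal marker sum was 1500 to 2000 CPM in WT, 2180 to 5180 in HET and 5520 to 9500 in KO at this day; its part in these estimates was not tested. Same-numbered libraries of KO and WT deviated together at day 3, and with the replicate number as a block RPPH1 was called lower in KO (log2 -0.78, SE 0.28, adjusted p = 0.0443, edgeR), in a fit that called 37.7% of all genes. RMRP (-0.62, adjusted p = 0.0531) and RN7SL1 (-0.69, adjusted p = 0.0649) narrowly missed the threshold there, and RN7SL2 and RN7SK had adjusted p = 0.227 each. With the implied fragment length described above as a covariate, a fit added after the data were seen, RMRP (-0.74, SE 0.15, adjusted p = 0.013, edgeR), RN7SL1 (-0.76, SE 0.21, 0.0446) and RN7SL2 (-0.60, SE 0.16, 0.0453) were called lower in HET than in WT at day 3, beside 6.88% of all genes. Fragments of the members can enter this length, which followed 7SL at r = -0.911 at day 3. The SE of RN7SL1 was 0.58 without the covariate. These calls are therefore not independent of the members' own spread, and no conclusion is drawn from them.

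At day 7 the differences from WT were largest. In KO they were -0.91 for RN7SK (SE 0.55, adjusted p = 0.222, edgeR), -0.77 for RN7SL1 (SE 0.68, 0.404), -0.63 for RPPH1 (SE 0.68, 0.495), -0.61 for RN7SL2 (SE 0.63, 0.483) and -0.52 for RMRP (SE 0.49, 0.442), on the log2 scale. In HET they were -1.22 for RN7SK (SE 0.55, adjusted p = 0.158, edgeR), -0.85 for RMRP (SE 0.49, 0.277), -0.49 for RN7SL2 (SE 0.63, 0.659), -0.46 for RN7SL1 (SE 0.68, 0.709) and -0.45 for RPPH1 (SE 0.68, 0.71). The HET result turned on 1 library, replicate 1, which was the highest of its group for all 5 RNAs. Leaving it out lowers the HET mean and the spread together. The 5 RNAs also rose and fell together between replicates. The calls below are therefore not 5 independent results, and no conclusion is drawn from them. Without HET replicate 1, all 5 RNAs were called lower in HET than in WT, RN7SK by -1.89 (SE 0.52, adjusted p = 0.0145, edgeR), RN7SL1 by -1.74 (SE 0.52, 0.0221), RPPH1 by -1.73 (SE 0.52, 0.0221), RN7SL2 by -1.59 (SE 0.49, 0.0251) and RMRP by -1.39 (SE 0.48, 0.039). The share of all genes called rose to 34.6% in that fit. HET replicate 1 had the lowest mitochondrial share of the 36 libraries (0.326%), while its pan-neuronal marker sum, 16000 CPM, lay within the 14300 to 17600 CPM of its group.

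**Figure D4:**
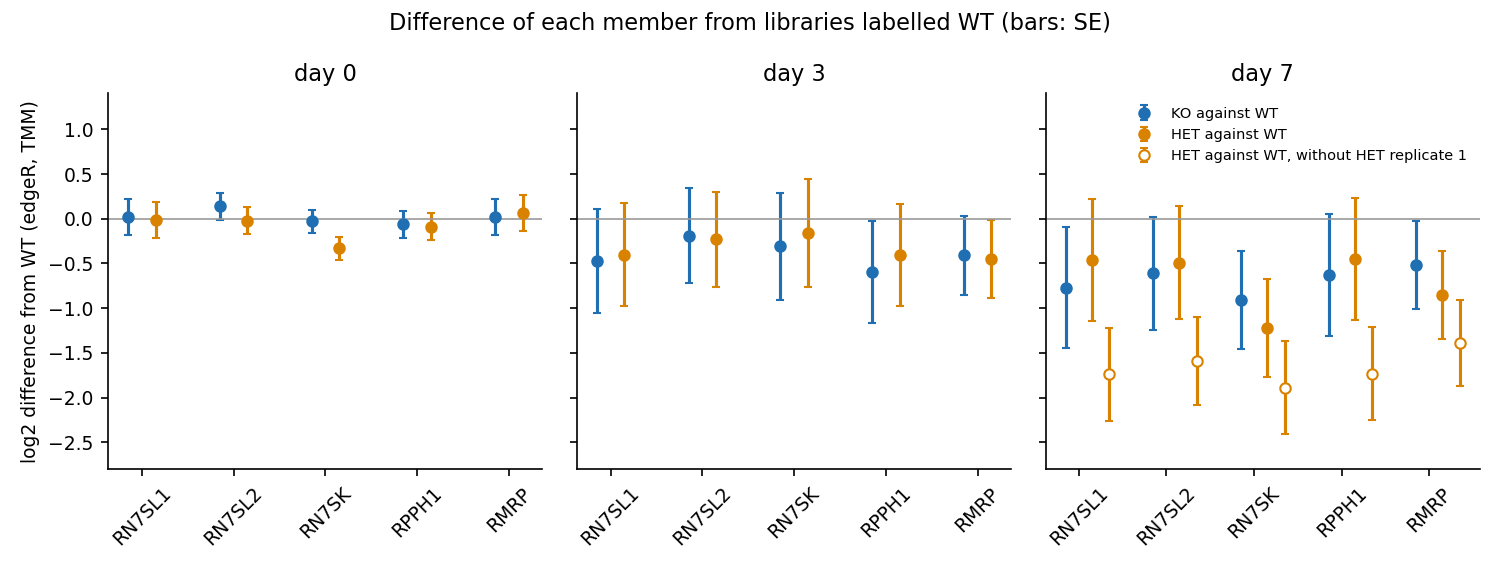
Log2 difference of each RNA from the libraries labelled WT on the same day (edgeR, TMM scaling; points are estimates and bars 1 SE, n = 4 a group), for KO and HET, with HET against WT at day 7 also without HET replicate 1 (open points, n = 3 against 4). With all libraries no member is called, and without that library all 5 are, at -1.39 to -1.89. That library is the highest of its group for all 5 RNAs, so the open points are no independent result.

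As shares of the library total, members were compared by an exact two-sided permutation test, for which 4 against 4 allow 70 assignments and a smallest p of 0.0286. These exact p-values were not adjusted for the number of comparisons, so single values at this floor are no calls. Of 45 comparisons 3 had no overlap, all of RN7SK and all at the exact p = 0.0286: lower in HET than in WT at day 0 (0.78-fold in geometric mean), and lower in KO (0.553-fold) and in HET (0.324-fold) than in WT at day 7. In non-member CPM the RN7SK ranges of HET and WT at day 7 did overlap (9780 to 73000 and 63300 to 131000). No overlap of shares in the same 3 comparisons was found for 7.89% of all genes for HET and WT at day 0, 40.1% for KO and WT at day 7 and 14.3% for HET and WT at day 7, beside 1 member of 5 in each. In the other 6 comparisons no member and 9.57% (KO and WT, day 0), 3.74% (KO and HET, day 0), 24.5% (KO and WT, day 3), 8.44% (HET and WT, day 3), 10% (KO and HET, day 3) and 8.6% (KO and HET, day 7) of all genes had no overlap. The pan-neuronal marker sum also differed between these groups, at 7340 to 13800 CPM in WT at day 7 against 14300 to 17600 in HET and 16100 to 18700 in KO, and the part of this difference in the RN7SK level was not tested. Glial, mesenchymal and neural crest markers summed to 153 to 261 CPM in WT, 93.2 to 182 in HET and 42.7 to 143 in KO at day 7.

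No difference between genotype labels was detected in the ratios between members. Of 27 comparisons of the 3 ratios, none had an exact p under 0.05 (smallest exact permutation p = 0.0857, smallest adjusted 0.812). At day 7 the RN7SK to 7SL ratio was 0.72-fold in HET against WT (exact p = 0.171) and 0.879-fold in KO against WT (exact p = 0.286).

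The change with days was compared between genotypes by an interaction term over the 36 libraries. None of the 5 members was called in any of the 4 interactions, in which 8.42% (KO, days 0 to 3), 18.6% (KO, days 3 to 7), 0.279% (HET, days 0 to 3) and 4.82% (HET, days 3 to 7) of all genes were. The largest was RN7SK between days 3 and 7 in HET, at -1.07 relative to WT (log2, SE 0.72, adjusted p = 0.499, edgeR). With SEs of 0.61 to 0.80, which hold the spread the members were selected for, an interaction of this size was not detectable for these RNAs. At an unadjusted p under 0.05 there was none.

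Genes for the proteins that work with these RNAs fell more often than they rose between days 0 and 3 in WT. They were compared between days with the same test within each genotype, beside 31.2% of all genes called higher and 28.7% lower in WT at day 3 against day 0, and 23.3% and 22.9% at day 7 against day 3. In HET these shares were 24.4% higher and 23.9% lower, then 20.8% and 20.5%, and in KO 29.7% and 29.6%, then 24.3% and 23.6%. Of 8 SRP genes, 2 rose and 3 fell between days 0 and 3 in WT (median log2 -0.21, against 0.07 over all genes). SRPRB, a subunit of the SRP receptor, rose by 0.78 (SE 0.20, adjusted p = 0.00376, edgeR) and SRP14, which binds the Alu domain of 7SL, by 0.41 (SE 0.11, 0.00581), while SRP19, which binds the S domain, fell by 0.54 (SE 0.15, 0.00667). Between days 3 and 7 none rose and 4 fell, among them SRP9 (-0.85), SRPRB (-0.73) and SRP68 (-0.67). In HET 1 rose and 2 fell, then 0 and 4; in KO 1 rose and 3 fell, then 0 and 3. On the TPM scale the WT values of SRPRB and SRP14 at day 3 changed sign.

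Of 9 genes of the 7SK complex and P-TEFb, 4 fell and none rose between days 0 and 3 in WT, among them MEPCE, the enzyme that caps 7SK (log2 -1.44, SE 0.19, adjusted p = 1.65e-05, edgeR), and HEXIM1, the inhibitor of P-TEFb (-1.37, SE 0.13, 7.12e-07). MEPCE and HEXIM1 fell in HET (-1.45 and -1.15) and KO (-1.62 and -1.17) too, where 3 of 9 fell and none rose, and 3 of 9 fell and 1 rose. Between days 3 and 7 LARP7, which binds the 3′ end of 7SK, fell by 0.91 in WT (SE 0.18, adjusted p = 0.00075, edgeR), by 1.24 in HET and by 0.94 in KO, while HEXIM1 rose by 0.77 in WT (SE 0.13, 0.000208). The counts at that step were 2 higher and 2 lower in WT, 0 and 1 in HET, and 0 and 2 in KO.

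Most protein genes of RNase P and RNase MRP fell between days 3 and 7 in WT. Of 11 genes, 2 rose and 5 fell between days 0 and 3 in WT, and none rose and 9 fell between days 3 and 7 (median log2 -0.60, against 0.01 over all genes). RPP25L rose by 1.48 first (SE 0.20, adjusted p = 1.68e-05, edgeR) and then fell by 1.97 (SE 0.20, 2.37e-06); RPP25 fell by 1.22 and RPP30 by 0.85 at the second step, RPP40 by 0.96 and POP1 by 0.93 at the first. In HET 1 rose and 4 fell, then 0 and 6, and in KO 0 and 6 (median -0.73), then 0 and 3 (median -0.26). RPP25 was lower in KO than in WT at day 3 (-1.32, SE 0.23, adjusted p = 0.00118, edgeR) and than in HET (-1.23, SE 0.23, 0.00942). The interaction with days was called for it in both steps, at -1.17 (SE 0.34, adjusted p = 0.0271) and 1.19 (SE 0.34, 0.0119). In all, 4 of these 11 genes were called lower in KO than in WT at day 3, with the replicate block 5 lower and 1 higher, beside 21.6% and 37.7% of all genes called in either direction in these fits.

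Of 18 RNA polymerase III subunit genes, 4 rose and 10 fell between days 0 and 3 in WT. The list holds subunits shared with RNA polymerase I or II, among them POLR1C, POLR2H and POLR2L. POLR3G, the subunit known for its high level in stem cells, fell most (log2 -3.98, SE 0.35, adjusted p = 3.23e-07, edgeR), and POLR1C fell too (-1.76). POLR3G fell by 5.19 in HET and by 5.29 in KO. At the second step none rose and 6 fell in WT, with POLR2H at -1.57, POLR3G at -1.39 and POLR2L at -1.31. The counts were 3 higher and 7 lower, then 0 and 6 in HET, and 3 and 8, then 3 and 5 in KO, where POLR3GL, the alternative to POLR3G, rose by 1.18 at the second step (SE 0.35, adjusted p = 0.0137, edgeR). Of 21 genes of initiation, repression and transcript binding, 3 rose and 10 fell in WT between days 0 and 3, with GTF3C4 at -1.85, GTF3C6 at -1.42 and SNAPC3, a subunit of the complex that reads the upstream element of these promoters, at 1.39, and 2 rose and 8 fell at the second step, with SSB, the La protein that binds new transcripts, at -0.87. The counts were 2 and 9, then 0 and 8 in HET, and 3 and 12, then 0 and 5 in KO. On log2(TPM + 1) with limma, against the median of -0.38, the first step in WT gave no rise in these 5 lists and falls of 7 of 8 SRP genes, 9 of 9 of the 7SK list, 9 of 11 of RNase P and MRP, 13 of 18 subunits and 19 of 21 initiation genes.

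Between KO and WT, 21.6% of all genes were called at day 3, 37.7% with the replicate block, and 32.6% at day 7. In KO against WT at day 3, POLR2H (-1.16), POLR3K (-1.04) and POLR3G (-0.93) were lower, with 3 of 18 subunits lower and none higher, AFF4 was higher (0.76), and no SRP or initiation gene was called. With the replicate block the subunit count was 1 higher and 6 lower, that of initiation genes 2 and 1, and 1 SRP gene was lower. POLR3G was lower in HET than in WT at day 3 (-1.16, SE 0.28, adjusted p = 0.0415, edgeR). In KO against WT at day 7, 4 subunits were higher and 1 lower, SNAPC1 (-0.85) and SNAPC4 (-0.79) were lower and GTF3C4 higher (0.72), HEXIM1 was lower (-0.59), and SRP9 (0.72) and RPP14 (0.52) were higher. In HET against WT at day 7, SRP9 was higher (0.78, SE 0.24, adjusted p = 0.0474, edgeR). Limma on log2(TPM + 1) called none of the 29 listed genes named between genotypes, neighbours included, and leaving out 1 library ended 19 of these calls.

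The head-to-head neighbours were compared with the same test. GSTA4, beside RN7SK, was higher at day 3 than at day 0 in WT (log2 2.01, SE 0.16, adjusted p = 1.03e-07, edgeR), HET (2.23) and KO (2.45), where RN7SK stood at 2.04, 2.22 and 1.80. Between days 3 and 7 GSTA4 was not called (0.13, 0.34 and 0.38), and RN7SK stood at 0.96 (SE 0.29) in WT, -0.09 (SE 0.57) in HET and 0.38 (SE 0.52) in KO. CCDC107, beside RMRP, was called only in WT between days 3 and 7 (0.93, SE 0.19, adjusted p = 0.000904, edgeR). PARP2, beside RPPH1, had a difference of 0.00 (SE 0.19) in WT between days 0 and 3, where RPPH1 stood at 2.01 (SE 0.35). In KO PARP2 fell by 1.14 at that step (SE 0.18, adjusted p = 7.72e-05, edgeR), and it was lower in KO than in WT at day 3 (-1.02, SE 0.25, 0.0106). Its change with days differed between KO and WT, by -1.16 between days 0 and 3 (SE 0.27, adjusted p = 0.00541, edgeR) and by 1.28 between days 3 and 7 (SE 0.27, 0.000729). RPS29, in whose intron RN7SL1 lies on the opposite strand, rose by 1.21 in WT at day 3 (SE 0.23, adjusted p = 0.000392, edgeR). Of 12 tested neighbours in WT, 3 rose and 1 fell at the first step and 2 rose and 5 fell at the second, ARHGEF39 (-2.87) and LRR1 (-2.36) most. Whether the counting used strand is not given in the sources used here.

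Other short structured RNAs were counted mainly above a certain length. Of 43 listed RNAs 42 were in the table. The 27 shorter than 180 nucleotides, a boundary set after the lengths and counts were seen, such as U6, Y and vault RNAs, averaged at most 3.75 counts, too few to compare them with the members, whereas all 15 at or above it averaged at least 10. The 15 include the 7SL copy RN7SL3, in which 34.4% of the 50-base stretches of RN7SL1 were found, so its counts may not be independent of the members. Of these 15, 12 rose and none fell between days 0 and 3 in WT (median log2 1.68), led by the small Cajal body RNA SCARNA10 (2.79, SE 0.33, adjusted p = 5.24e-06, edgeR), RNU2-2P (2.65) and SNORD17 (2.16), and in HET 3 rose and none fell and in KO 6 rose and none fell, beside 31.2%, 24.4% and 29.7% of all genes called higher in WT, HET and KO. Between days 3 and 7, 2 rose and 1 fell in WT, 2 fell in HET and 1 fell in KO. On log2(TPM + 1) with limma, 4 of the 15 rose and 2 fell at the first step in WT and 6 fell at the second. The polymerase differs among these RNAs: SCARNA10, RNU2-2P and SNORD17 are RNA polymerase II products, or are cut from them.

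**Figure D5:**
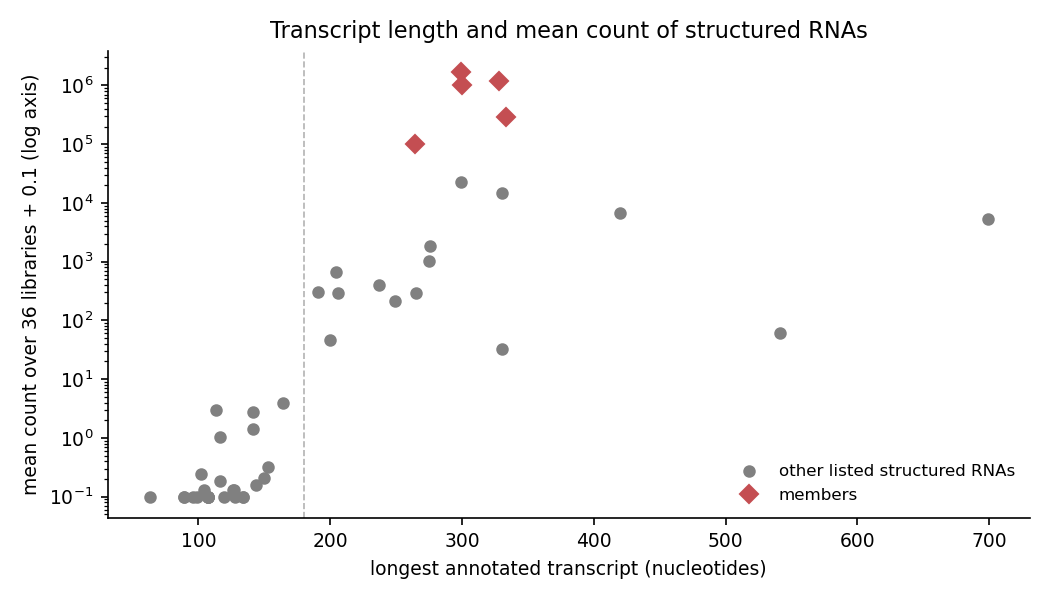
Longest annotated transcript (nucleotides) against the mean count over 36 libraries plus 0.1 (log axis) for the 5 members (diamonds) and 42 other listed structured RNAs (circles); the dashed line is at 180 nucleotides. RNAs left of the line average at most 3.75 counts, and the members are the 5 highest points.

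The genes whose levels ran most like the mean of the 5 members were again mostly short RNAs. Over 36 libraries and 12642 genes, Pearson r of log2 levels was highest for SCARNA13 (0.987), SCARNA12 (0.971), SCARNA10 (0.968), ENSG00000259001, which overlaps RPPH1 (0.967), SCARNA5 (0.965), RN7SKP9 (0.959), SCARNA2 (0.959) and RN7SKP203 (0.956). As deviations from group means the order was SCARNA10 (0.988), SCARNA13 (0.98), SCARNA5 (0.964), ENSG00000259001 (0.963), SCARNA12 (0.962), a row named Telomerase-vert (0.961), LSM7 (0.957) and LAMTOR5 (0.957). The first is over points that share day and genotype, both share the denominator, and the pseudogenes RN7SKP9 and RN7SKP203 can share reads with RN7SK. LSM7 and LAMTOR5 are protein-coding genes, with longest transcripts of 710 and 1830 nucleotides.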

How the data were processed

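Per the submitters' processing notes, the authors used cutadapt 4.8, FastQC 0.11.8, MultiQC 1.20, STAR 2.7.8a and RSEM 1.3.3 with GRCh38; the roles of these tools, the annotation and the use of strand are not given in the sources used here. The authors deposited expected counts per gene as whole numbers, used as deposited, and the same genes as TPM and FPKM. Reads were 151 bp in pairs. Of the table, 62710 gene rows entered, and 4 reporter rows, 0.000637% to 0.0171% of a library, were left out. Library totals were 23.9 to 56.7 M counts, which makes counting error small beside the spread between replicates for the members. For genes with few counts, such as SCARNA7 (9 to 62 counts), this was not examined.

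Shares are percentages of the library total. CPM, or non-member CPM, divides by the library total without the 5 members. Tests between genotypes and days, and the interactions, used edgeR 4.0.16 (R 4.3.3; quasi-likelihood, TMM scaling, filterByExpr) on the expected counts of all genes, adjusted by Benjamini-Hochberg over all genes tested, with 0.05 as the threshold. Each genotype comparison was fitted on the libraries of that day and each day comparison on the libraries of that genotype. All 5 members passed the filter in every fit. Exact permutation tests went through all assignments with numpy 2.4.6, correlations used scipy 1.17.1, and all tests were two-sided. The scripts were tested on simulated data.

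The mean fragment length was inferred from the deposited counts and FPKM, which give each gene's effective length, over 79 genes with transcripts of at least 2000 nucleotides and at least 1000 counts in every library.

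The members and the 10 gene lists were chosen with earlier results of these data known. All members are named in every comparison; of each list, up to 3 genes past the threshold with the largest absolute log2 difference, and all called neighbours, were eligible to be named, and POLR3GL, PARP2, CCDC107, GSTA4 and RPS29 were singled out among listed genes for their relation to the members. Some items the rule names are not reported here. Likeness used genes with a mean of at least 5 non-member CPM.

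Replicate numbers are shared between groups, and the labels attach no litter, day or culture to them. Deviations from group means of same-numbered libraries correlated over 0.1 in all 4 pairs for KO and WT at day 0 (0.287 to 0.692), KO and WT at day 3 (0.121 to 0.594) and HET and WT at day 3 (0.166 to 0.796), and in no other comparison; the pairing there comes from the data alone. Alternatives were library size with and without the members, DESeq2 1.42.0 and its size factors, limma 3.58.1 on log2(TPM + 1) and log2(TPM + 0.1), no filter on low counts, the replicate block, 1 fit over all 36 libraries, each library left out in turn and, chosen after seeing the data, the implied fragment length as a covariate.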

Additional observations from a re-analysis of the deposited data

Results flagged for a closer look

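In the HET group at day 0, RN7SK in replicate 2 stood apart from the other 3 libraries, at 0.629% of the library total against 0.847% to 0.878%. Of 54 groups of 4 values examined in this way it was the only such library, and chance marks about 1 in 20. This library also had the highest sum of glial, mesenchymal and neural crest markers of its group, 1260 CPM against 158 to 324, as did replicate 2 in WT (1010 CPM) and in KO (1270 CPM) at day 0; the part of this in the RN7SK value was not tested.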

How the results depend on the processing

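Over 1310 recomputed genotype and interaction values of the members, 171 changed sign, none of them past the threshold, and 9 came to pass it. The number of members called stayed at 0 in 259 of 262 recomputations. It was 1 for KO against WT at day 3 with the replicate block, 3 for HET against WT at day 3 with the implied fragment length as a covariate, and ranged from 0 to 5 for HET against WT at day 7 when 1 library was left out, with 5 without HET replicate 1. HET replicate 1 at day 7 was the highest of its group for all 5 RNAs. The cause was not tested. The replicate block changed no other call of a member.

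As a share of TPM the 5 members took 57.3%, 57.7% and 57.6% in WT, HET and KO at day 0, 73%, 69.5% and 68.3% at day 3, and 81.5%, 67.9% and 77.4% at day 7. TPM divides by effective lengths that are short for these RNAs, and this raises their share by construction. The correlation of 7SL with RN7SK at day 0 was 0.701 as deviations from group means, against 0.579. Of the 67 partner and polymerase genes, limma on log2(TPM + 1) and on log2(TPM + 0.1) called 12 and 12 in HET between days 0 and 3 (edgeR 32), 3 and 3 in HET between days 3 and 7 (edgeR 25), and 10 and 10 in KO between days 3 and 7 (edgeR 21). The other partner counts stayed within 1.5 times.

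Counts over all genes moved more, by over 1.5 times in 52 of 162 recomputations. KO against WT gave 425 calls (238 with limma on log2(TPM + 1), 960 with the block) at day 0, 4649 (816 and 8137) at day 3 and 7071 (1007 with limma) at day 7. HET against WT gave 333 (184 and 689), 708 (39 and 1895) and 3129 (271 with limma, 7674 without HET replicate 1, 1700 without HET replicate 3). KO against HET gave 175 (121 with limma), 937 (39 and 2739) and 305 (39 with limma, 1948 with the fragment length). Interactions gave 2086 (321 with limma) and 4611 (942) in KO, and 69 (251 with the fragment length) and 1194 (109 with limma, 2354 without HET day 7 replicate 1) in HET. Of 29 named genotype calls of listed genes, none was called with limma on log2(TPM + 1); of 134 named calls between days, 77 were called under every alternative. SRPRB, SRP14 and TEP1 (WT, days 0 to 3), RPS29 (KO, days 0 to 3) and TEP1 (HET against WT, day 7) changed sign on the TPM scale.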
